A study of Mus musculus with 14 samples.

Results

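Loss of C1qa was examined in the low-lymphoid spots of mouse spleen, the spots meant to hold the red pulp. These spots were chosen by their own counts. Spots over tissue that detected 1000 genes or more and held under 1% of their UMIs (unique molecular identifiers, 1 per captured molecule) from 8 exocrine pancreas genes were ranked within each section by the share of UMIs from 12 B- and T-cell genes, and the lowest 25% were taken. This gave 1411 spots of 5651 ranked spots, out of 6151 in-tissue spots in the 4 spleens and 17319 in all 14 sections of the series. There were 356 such spots in wild-type 1, 406 in wild-type 2, 316 in knockout 1 and 333 in knockout 2. The limit fell at a lymphoid share of 0.817% in wild-type 1, where the next spot outside held 0.818%. In wild-type 2 both spots at the limit held 0.984%, in knockout 1 both held 1.245%, and in knockout 2 they held 1.248% and 1.249%.

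The study mapped gene expression in blood-forming organs with the 10x Genomics Visium assay, in which each spot of a slide captures RNA from a small patch of tissue with several cells. The spleens came from untreated mice, 3 months old by the labels, bred by crossing purchased C1qa heterozygotes, and were fixed in formalin and embedded in paraffin. There were 2 wild-type and 2 C1qa knockout spleens with 1 section each, and the inherited allele was not restricted to macrophages. The sources do not tie same-numbered spleens to a litter or a slide, so the p-values below measure the spread between 2 sections per genotype.

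Red pulp is the part of the spleen in which blood percolates past macrophages that engulf aged red cells, degrade their heme and export the iron. In mice it also makes blood: erythroblasts mature around macrophages in erythroblastic islands, and granulocyte precursors and megakaryocytes lie among them. White pulp holds the B-cell follicles and T-cell zones, with the marginal zone between the compartments. C1q, built from the products of C1qa, C1qb and C1qc, starts the classical complement pathway, binds dying cells and is made mainly by macrophages.

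The markers of red pulp were checked before any comparison. In wild-type 1 the low-lymphoid spots carried a median of 0.609% of UMIs from 20 red-pulp macrophage genes and 19.5% from globin genes, with 0.0468% from 12 T-cell genes that were not used to choose the spots. In the other sections the low-lymphoid spots were of 2 kinds. Spots with at least 0.15% of UMIs from those T-cell genes numbered 4 in wild-type 1, 200 in wild-type 2, 123 in knockout 1 and 157 in knockout 2, which is 1.12, 49.3, 38.9 and 47.15% of the low-lymphoid spots. In these T-cell-rich spots the median macrophage share was 0.140% in wild-type 2, 0.137% in knockout 1 and 0.136% in knockout 2. In the remaining T-cell-poor spots it was 0.567, 0.570 and 0.649%, against 0.610% in wild-type 1. The data therefore went against the name red pulp for a large share of the spots in 3 of 4 sections, and the spots are called low-lymphoid here. The immunoglobulin gene Ighm supplied 50.03, 37.6, 36.8 and 40.3% of the UMIs of the 12 ranking genes in wild-type 1, wild-type 2, knockout 1 and knockout 2.

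**Figure D1:**
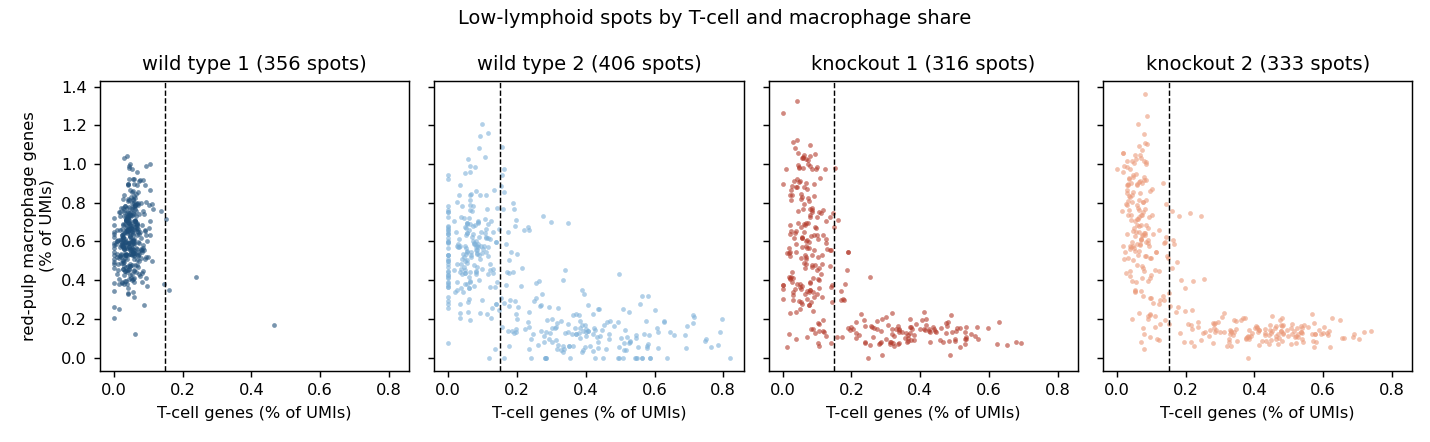
Each point is 1 low-lymphoid spot, with its share of UMIs from 12 T-cell genes (x axis, %) and from 20 red-pulp macrophage genes (y axis, %), in 4 panels for the 4 sections. The dashed line marks 0.15%, and wild-type 1 has 4 spots at or above it against 200, 123 and 157 in wild-type 2, knockout 1 and knockout 2.

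The T-cell-poor spots numbered 352 in wild-type 1, 206 in wild-type 2, 193 in knockout 1 and 176 in knockout 2, and the counts of most gene lists are given in them as well, a comparison added after the data were seen. Depth also differed. The low-lymphoid spots held 4254117 UMIs in wild-type 1, 1067251 in wild-type 2, 2500059 in knockout 1 and 4071130 in knockout 2, with medians of about 12400, 2322, 7622 and 10930 UMIs per spot. The median lymphoid share within them was 0.541% and 0.761% in wild type against 1.087% and 1.075% in knockouts. Ranking within sections thus did not equalize it. Among T-cell-poor spots alone the medians were 0.54% and 0.699% against 1.12% and 1.10%, so these spots were not matched for it either. In wild-type 1, 61.8% of low-lymphoid spots had all 6 neighbors in tissue, against 80.5 to 82.0% in the other sections. The part of these differences in the results was not tested, except where a comparison at a common depth or a similar lymphoid share is given.

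As a check of the labels, C1qa came first. The low-lymphoid spots held 1269 C1qa counts in wild-type 1 and 401 in wild-type 2, or 298 and 376 CPM (counts per 1000000 UMIs), against 0 in knockout 1 and 1 in knockout 2. The exact 95% Poisson limits, which cover counting error alone, were 0 to 1.48 CPM in knockout 1 and 0.00622 to 1.37 CPM in knockout 2. C1qa was thus abundant in both wild types and at or under 3 counts in both knockouts. C1qb and C1qc flank it on chromosome 4, in the order C1qb (GRCm38.p6, chr4:136880126-136886200), C1qc (chr4:136889801-136892936) and C1qa (chr4:136895916-136898844), and their transcripts were retained. C1qb stood at 104 and 77.1 normalized CPM (CPM after TMM scaling, the unit of all gene values below unless stated) in the wild types and at 117 and 175 in the knockouts (log2 fold change, knockout over wild type, 0.68, SE 0.26, adjusted p = 0.073). C1qc stood at 305 and 283 against 304 and 384 (log2 fold change 0.23, SE 0.24, adjusted p = 0.487). Both knockouts lay above both wild types for C1qb and overlapped them for C1qc. Among T-cell-poor spots C1qb rose by 0.75 (adjusted p = 0.0228), from 101.5 and 97.2 CPM to 128 and 202 CPM, and the C1qc difference was 0.36 (adjusted p = 0.149).

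Over all genes, edgeR called 3601 of 17683 tested genes between genotypes at a Benjamini-Hochberg adjusted p under 0.05, or 20.4%. Of these, 2049 (11.6% of genes tested) were higher and 1552 (8.78%) lower in knockouts, and the median over all genes was -0.15 on the log2 scale. Higher genes made up 56.9% of calls with TMM scaling and 21.3% with upper-quartile scaling, so the balance of directions depended on the scaling. They made up 82.4% with DESeq2, another test that gave an adjusted p to 9548 genes. Upper-quartile factors moved the median of all genes to -0.48 and DESeq2 moved it to -0.05. Leaving out 1 section kept the median of all genes between -0.15 and -0.05. Such a fit takes the spread between sections from the pair of the other genotype alone. The wild-type pair differed more than the knockout pair (chi-square per degree of freedom 13.1 and 3.80). Calls made or lost on leaving out 1 section, here and below, therefore do not rank the sections by weight. Among the T-cell-poor spots 4132 of 15124 genes were called (27.3%), 2326 higher (15.4%) and 1806 lower (11.9%), and 2861 of the 3601 calls were also made there in the same direction.

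Most genes of 3 red cell lists were lower in knockouts. Of 16 erythroid progenitor genes 14 fell and 0 rose, with a median log2 fold change of -2.16. Of 19 red cell membrane genes 16 fell and 0 rose (median -2.78), and of 16 genes of heme synthesis and globin 14 fell and 0 rose (median -2.13). For comparison, 8.78% of all genes fell. Since spots mix cells, fewer erythroid cells and less RNA per cell cannot be told apart. The knockout spots also held a higher lymphoid share. The part of this difference was not tested, except in the window given below, which was matched for lymphoid share alone.

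Among progenitor genes, the summed level of the list was 6098 and 3027 normalized CPM in wild-type 1 and 2 and 715 and 969 in knockouts 1 and 2, so that the mean of the wild types was 5.42-fold the mean of the knockouts. Cldn13, a claudin of erythroblasts, stood at 120 and 76.2 against 5.49 and 9.09 (log2 fold change -3.74, SE 0.32, adjusted p = 2.03e-05). Ermap, an adhesion protein of the red cell surface, stood at 387 and 199 against 25.5 and 23.8 (-3.58, SE 0.32, adjusted p = 2.19e-05). Rhd, of the Rh blood group complex, stood at 236 and 116 against 7.44 and 14.7 (-3.97, SE 0.37, adjusted p = 2.81e-05). For all 3 genes both knockouts lay far below both wild types. Epor, the erythropoietin receptor, fell from 54.5 and 26.5 to 9.80 and 9.09 (-2.19, SE 0.33, adjusted p = 9.01e-04). Tfrc, the transferrin receptor through which erythroblasts take up iron, fell from 608 and 311 to 99.1 and 121 (-2.07, SE 0.30, adjusted p = 8.15e-04).

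Genes of the membrane skeleton and its anchors had the lowest median of the erythroid lists. Dmtn, which bundles actin at the membrane skeleton, stood at 450 and 189 against 17.6 and 21.1 (-4.05, SE 0.37, adjusted p = 2.56e-05). Slc4a1, the band 3 anion exchanger, stood at 1399 and 605 against 57.6 and 84.5 (-3.82, SE 0.38, adjusted p = 4.16e-05). Kel, a blood group protein, fell by 3.66 and Add2, the beta subunit of adducin, fell by 3.27 on the log2 scale, both with adjusted p = 4.16e-05. Sptb, Ank1, Rhag and Epb42, further parts of the skeleton and its membrane complex named here after their values were seen, had log2 fold changes of -3.17 to -2.63, all called.

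Heme synthesis genes fell along the pathway, whereas globin itself was less regular. Alad, Uros and Urod, which act after the first step, had log2 fold changes of -2.61, -2.11 and -2.32 (adjusted p from 1.04e-04 to 2.85e-04). Urod, for example, stood at 327 and 181 against 46.2 and 56.2. The alpha-globin gene Hba-a2 stood at 105388 and 28388 normalized CPM against 10144 and 20065 (-2.15, SE 0.58, adjusted p = 0.0216), and the beta-globin gene Hbb-bs at 67369 and 15670.2 against 6964 and 18137 (-1.73, SE 0.60, adjusted p = 0.0533). The genotypes did not overlap for Hba-a2 and overlapped for Hbb-bs, where knockout 2 exceeded wild-type 2. Hba-a2 was not called without knockout 1 (-1.73, adjusted p = 0.358), without knockout 2 (-2.72, adjusted p = 0.273) or by DESeq2 (adjusted p = 0.113). Globin transcripts also fill red cells in the blood of the tissue, and the split of beta-globin counts between near-identical copies is uncertain. The alpha-globin copy Hba-a1 was not among the genes measured, so alpha-globin counts were not split with it.

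Transcription factors of the lineage divided. Of 15 tested, 8 fell and 2 rose. Gata1, the master factor of erythroid and megakaryocyte genes, stood at 140 and 56.5 against 12.1 and 16.6 (-2.81, SE 0.36, adjusted p = 2.75e-04). Gfi1b and Tal1, its partners in the same lineages, had log2 fold changes of -3.03 and -2.24 (adjusted p = 1.04e-04 and 8.95e-04). The rising pair was Bcl11a (26.5 and 35.1 against 79.5 and 85.6, log2 fold change 1.47, adjusted p = 0.00173) and Ikzf1 (0.82, adjusted p = 0.037), factors that B cells also use. Ikzf1 lost its call without knockout 1 (0.93, adjusted p = 0.155), without knockout 2 (0.71, adjusted p = 0.419) and with upper-quartile scaling (adjusted p = 0.113).

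Of 16 erythropoietin signaling genes 2 fell and 1 rose, beside 20.4% of all genes called in either direction. The fallen members were Epor and Bcl2l1, a survival factor of erythroblasts (-1.75), and the rising one was the kinase gene Jak2 (1.01). Bcl2l1 was not called without wild-type 1 (-0.56, adjusted p = 0.0688), nor Jak2 without knockout 2 (0.82, adjusted p = 0.241). Of 16 genes of reticulocyte maturation 9 fell and 0 rose (median -1.49). They were led by Fn3k, a kinase that repairs sugar-modified proteins in red cells, at 144.8 and 98.5 against 7.05 and 8.56 (-3.96, SE 0.29, adjusted p = 4.83e-06). Trim58, a ubiquitin ligase of late erythroblasts, fell from 105 and 57.4 to 9.40 and 9.63 (-3.13, SE 0.31, adjusted p = 4.16e-05).

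**Figure D2:**
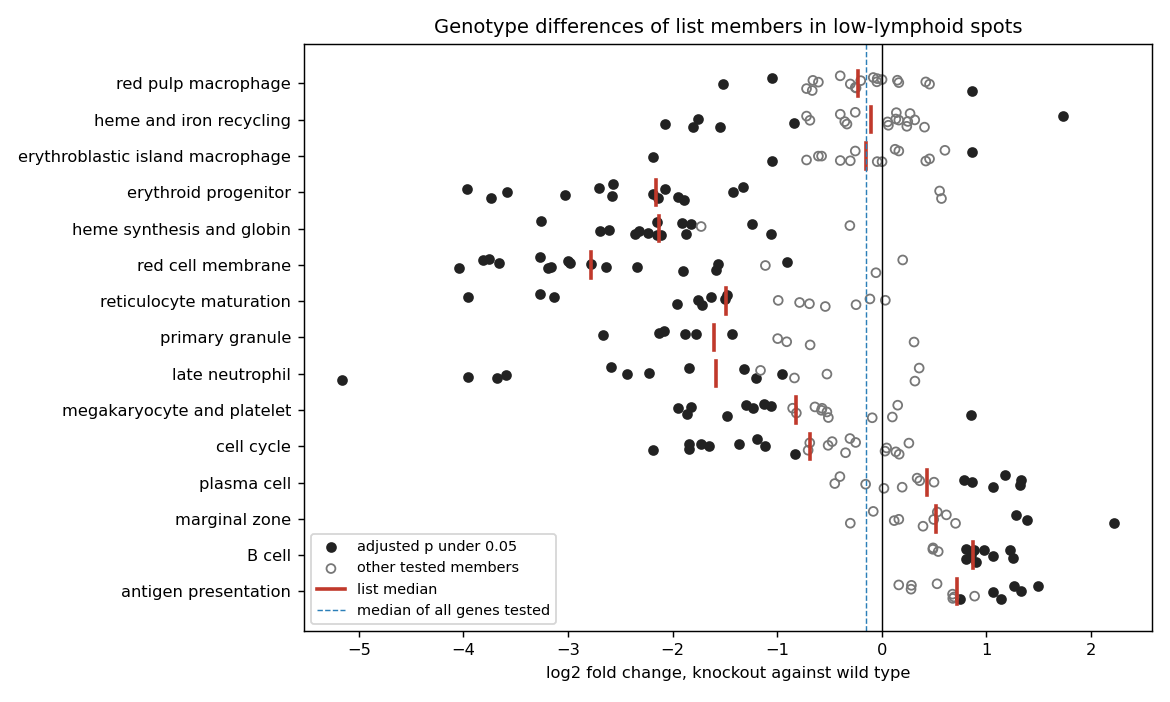
Log2 fold change, knockout against wild type, of each tested member of 15 gene lists in low-lymphoid spots (x axis), with filled points for members with an adjusted p under 0.05, red bars for list medians and a dashed line for the median of all genes at -0.15. The erythroid lists lie between -4.05 and 0.57 with medians of -2.16, -2.13 and -2.78, whereas the red-pulp macrophage list is centered at -0.22.

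In T-cell-poor spots, which were not matched for lymphoid share, the progenitor list summed to 5957 and 5488 CPM in wild-type 1 and 2. In knockouts it summed to 992 and 1414 CPM. All 14 progenitor, 16 membrane, 14 heme and globin and 9 reticulocyte genes were called again as lower there. These spots are a part of the same low-lymphoid spots, and nearly all of them in wild-type 1, so such repeated calls are not independent. The other B-cell genes summed to 2070 and 2361 CPM there in wild types and 4790 and 4359 CPM in knockouts. All 10 called transcription factors were called again in their own direction. A window chosen after the data were seen took all kept spots whose lymphoid share lay within 0.25 percentage points of 1%. Median shares in it were 1.044 and 1.046% in the wild types and 1.112 and 1.094% in the knockouts. In this window 11 of the 14 progenitor and 12 of the 16 membrane genes were called as lower. Only 6 of the 14 heme and globin genes, 4 of the 9 reticulocyte genes and 4 of the 10 transcription factors were called again. The window was matched for lymphoid share alone, not for the kinds of cells in the spots. At shares of 0.75 to 1%, the T-cell genes not used for ranking summed to 762 CPM in wild-type 1. In wild-type 2, knockout 1 and knockout 2 they summed to 2570, 2741 and 3626 CPM. Without knockout 2, 12 of the 14 progenitor, 14 of the 16 membrane, 10 of the 14 heme and globin, all 9 reticulocyte and 7 of the 10 transcription factor genes were called. DESeq2 called all 14 progenitor, 14 of the 16 membrane, 9 of the 14 heme and globin, 5 of the 9 reticulocyte and 8 of the 10 transcription factor genes.

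**Figure D3:**
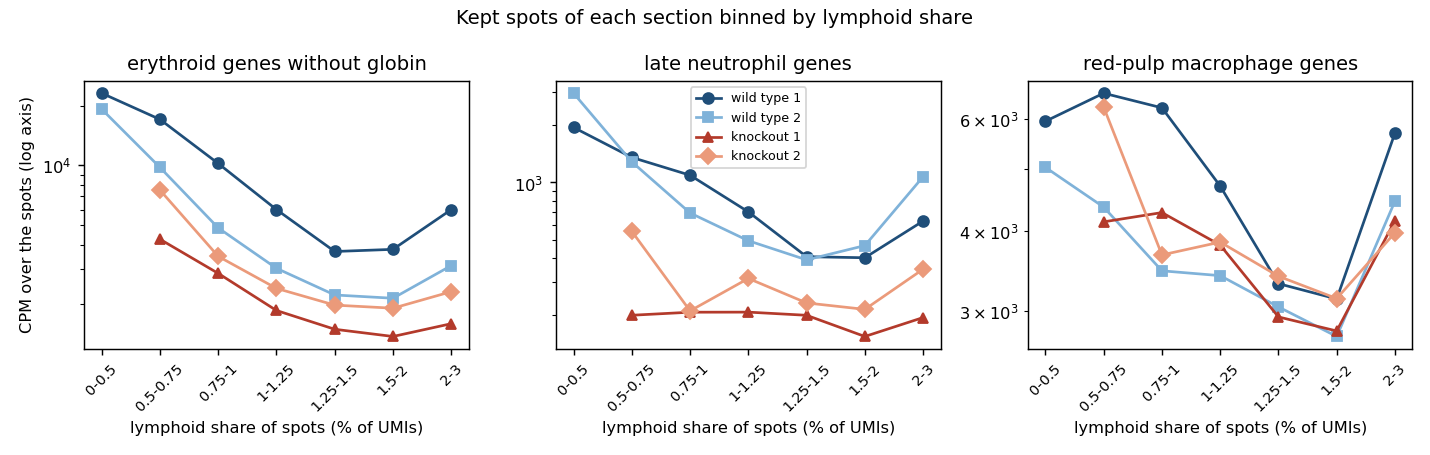
Kept spots of each section grouped by lymphoid share (x axis, % of UMIs) with the summed level of erythroid genes without globin, late neutrophil genes and red-pulp macrophage genes (y axes, CPM, log scale), 1 line per section and groups under 20 spots left out. At shares of 0.75 to 1%, with 75 and 88 knockout spots, the erythroid level was 10230 and 4849 CPM in wild types. In knockouts it was 2863 and 3487 CPM. The macrophage level was 6246 and 3466 CPM against 4278 and 3671 CPM. In the next higher group, with 216 and 222 knockout spots, the erythroid level was 5996 and 3036 CPM against 1862 and 2406 CPM. In both groups the erythroid level of wild-type 2 lay nearer to knockout 2 than to wild-type 1.

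Promoter sequence was read for erythroid genes that fell together. GATA1 binds the letters AGATAA, or TTATCT on the other strand, and 10 of the 45 fallen erythroid genes with a RefSeq promoter window (250 bases before to 50 after the start, GRCm38.p6) held either, or 22.2%, beside 12.7% of all genes with a window. A total of 61 erythroid genes fell, and the other 16 had no window. Rhd, Kel and Epor are printed because each was named above and holds the motif within 120 bases of its start, with the motif in capitals and each sequence running 5′ to 3′ on the gene's strand up to the base before the start. The motif begins 43 bases before the start in Rhd (chr4:134864416-134864535, plus strand), 56 in Kel (chr6:41704326-41704445, minus strand) and 54 in Epor (chr9:21963577-21963696, minus strand). The match is a description of the letters and does not show binding.
Rhd: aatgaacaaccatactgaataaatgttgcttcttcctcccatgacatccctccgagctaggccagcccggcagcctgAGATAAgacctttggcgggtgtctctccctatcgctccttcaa
Kel: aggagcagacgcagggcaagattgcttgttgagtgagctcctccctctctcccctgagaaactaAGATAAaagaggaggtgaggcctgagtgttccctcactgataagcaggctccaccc
Epor: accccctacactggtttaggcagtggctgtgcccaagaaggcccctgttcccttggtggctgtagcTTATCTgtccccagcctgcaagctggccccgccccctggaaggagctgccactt

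Neutrophil genes fell as well. Of 16 late neutrophil genes 11 fell and 0 rose (median -1.58), and the list summed to 1561 and 1130 normalized CPM against 201 and 328. Camp, the cathelicidin antimicrobial peptide of secondary granules, stood at 397 and 254 against 2.35 and 14.7 (-5.16, SE 0.48, adjusted p = 2.81e-05). Ltf, lactoferrin, stood at 147 and 104 against 6.66 and 13.6 (-3.60, SE 0.32, adjusted p = 2.19e-05). Lcn2, which binds bacterial siderophores, stood at 64.5 and 55.7 against 3.13 and 5.88 (-3.68, SE 0.32, adjusted p = 2.03e-05). Ngp, another granule protein of maturing neutrophils, and S100a9, a subunit of calprotectin, had log2 fold changes of -3.96 and -2.59 (adjusted p = 1.12e-04 and 8.38e-04). Of 10 primary granule genes, which mark earlier precursors, 6 fell and 0 rose (median -1.61). Elane, neutrophil elastase, stood at 65.2 and 65.1 against 9.01 and 11.2 (-2.67, SE 0.26, adjusted p = 4.16e-05), and Prtn3 and Mpo, a protease and the peroxidase of the same granules, had log2 fold changes of -2.08 and -1.88. Without knockout 2, 8 of the 11 late and 4 of the 6 primary granule genes were called, and DESeq2 called 7 and 3.

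The neutrophil difference was again present in T-cell-poor spots. In T-cell-poor spots the late neutrophil list summed to 1525 and 2030 CPM in wild-type 1 and 2 and to 246 and 472 CPM in knockouts, and 10 of the 11 genes were called again, as were all 6 primary granule genes. In the window around a lymphoid share of 1%, 8 of the 11 and 3 of the 6 were called. At a common depth of 1000 UMIs per spot, 64.0% and 43.6% of low-lymphoid spots in wild-type 1 and 2 held a late neutrophil UMI, against 17.4% and 20.4% in knockouts 1 and 2, with no spot left out for depth. Unthinned, the median share of late neutrophil UMIs per spot was 0.0853% and 0.0437% against 0.0176% and 0.0193%. At 1000 UMIs per spot, the level of a spot correlated with that of its low-lymphoid neighbors at r = 0.55 in both wild-type sections. In knockouts, where fewer spots held such a UMI, r was 0.16 and 0.08. The part of these low counts in r was not tested. These values, over 343, 371, 285 and 301 spots, describe spots that share a library.

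Megakaryocyte and platelet genes and genes of dividing cells were lower as well. Of 19 megakaryocyte genes 8 fell and 1 rose (median -0.82), from summed levels of 988 and 745 normalized CPM to 463 and 478. Pf4, platelet factor 4, stood at 306 and 197 against 70.1 and 72.8 (-1.82, SE 0.26, adjusted p = 6.67e-04), and Treml1, a receptor of platelet granules, fell by 1.95 on the log2 scale (adjusted p = 6.67e-04). The rising member was Fli1, a transcription factor that lymphocytes and endothelium also express, named after its value was seen (0.85), and it was not called without knockout 1 (0.84, adjusted p = 0.0965), without knockout 2 (0.88, adjusted p = 0.188) or with upper-quartile scaling (0.52, adjusted p = 0.079). Of 21 cell cycle genes 9 fell and 0 rose (median -0.69). Mki67, the proliferation marker, stood at 844 and 438 against 117 and 165 (-2.19, SE 0.32, adjusted p = 7.29e-04), and the cyclin gene Ccna2 fell by 1.84 (adjusted p = 8.97e-04). In T-cell-poor spots the cell cycle list summed to 2842 and 2917 CPM in wild types and 1009 and 1160 CPM in knockouts, and all 9 genes were called again as lower. Without knockout 2, 4 of the 9 called megakaryocyte genes and 6 of the 9 called cell cycle genes passed, and in the window around 1% 3 of each 9 did. Of the 9 megakaryocyte calls 8 were also made in T-cell-poor spots.

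**Figure D4:**
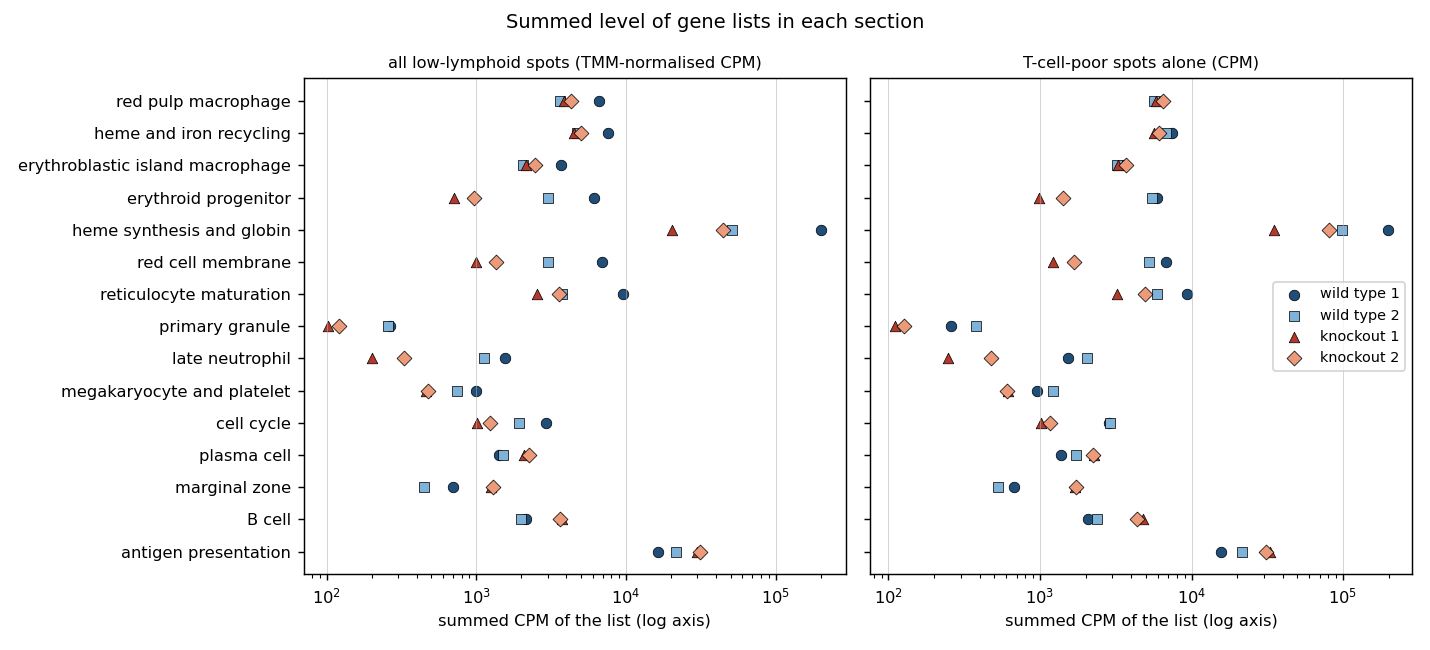
Summed level of 15 gene lists in each section (x axis, log scale), as normalized CPM over all low-lymphoid spots (left) and as CPM over T-cell-poor spots alone (right), 1 marker per section. In the right panel red-pulp macrophage genes lie between 5693 and 6466 CPM in all 4 sections, whereas late neutrophil genes lie at 1525 and 2030 CPM in wild types and at 246 and 472 CPM in knockouts.

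Of 20 red-pulp macrophage genes, 1 rose and 2 fell (median -0.22), beside 20.4% of all genes called in either direction. With upper-quartile scaling 0 rose and 7 fell, beside 918 that rose and 3393 that fell of all 17683 genes. Hmox1, the enzyme that opens the heme ring, stood at 1723 and 718 normalized CPM in wild types and at 699 and 789 in knockouts (-0.72, SE 0.34, adjusted p = 0.130), so that wild-type 1 alone stood apart. Slc40a1, the iron exporter ferroportin, stood at 508 and 311 against 315 and 375 (-0.25, SE 0.27, adjusted p = 0.487). Spic, the transcription factor of these macrophages, stood at 65.0 and 37.7 against 63.1 and 82.9 (0.46, SE 0.27, adjusted p = 0.205). The genotypes overlapped for Slc40a1, Hmox1 and Spic. In T-cell-poor spots the list summed to 6420 and 5693 CPM in wild types and 5838 and 6466 CPM in knockouts, and 3 members rose and 1 fell (median 0.15). There Hmox1 stood at 1677 and 1217 CPM against 1148 and 1315 CPM (-0.23, adjusted p = 0.440), Slc40a1 at 494 and 521 against 509 and 625 (0.19, adjusted p = 0.458), and Spic rose from 63.0 and 47.7 to 97.6 and 116 (0.87, adjusted p = 0.00737).

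The called macrophage genes over all low-lymphoid spots were Cd5l, Adgre1 and Timd4. Cd5l, a secreted scavenger protein, stood at 492 and 148 against 109 and 117 (-1.52, adjusted p = 0.0161) and was not called without wild-type 1 (-0.40, adjusted p = 0.189). Adgre1, the F4/80 antigen, stood at 28.97 and 11.99 against 11.4 and 10.7 (-1.05, adjusted p = 0.0444), and was not called without wild-type 1 (-0.14, adjusted p = 0.888), without knockout 2 (-0.98, adjusted p = 0.181) or in T-cell-poor spots (-0.78, adjusted p = 0.0707). Timd4, a receptor for phosphatidylserine on dying cells, stood at 31.6 and 20.6 against 41.1 and 58.3 (0.87, adjusted p = 0.0379), and was not called without knockout 2 (0.60, adjusted p = 0.391). None of the 3 calls was made by DESeq2.

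Of 22 genes of iron and heme handling 5 fell and 1 rose (median -0.10), beside 20.4% of all genes called in either direction. The fallen members were Tfrc, Steap3, Blvrb, Tfr2 and Slc48a1. Tfrc, Steap3 and Tfr2, a second transferrin receptor, are known from iron handling in erythroblasts, and Blvrb, a biliverdin reductase, is abundant in red cells. Slc48a1, a heme transporter, and Tfr2 were named after their values were seen, and without knockout 2 neither was called (-0.86, adjusted p = 0.336, and -1.14, adjusted p = 0.133), nor without wild-type 1 (-0.41, adjusted p = 0.127, and -1.26, adjusted p = 0.170). Without knockout 1 Slc48a1 was not called either (-0.80, adjusted p = 0.240). Steap3 fell from 47.7 and 30.8 to 15.3 and 9.36 (-1.76, adjusted p = 0.00238) and Blvrb from 1378 and 555 to 266 and 288 (-1.81, adjusted p = 0.004). The rising member was Cp, ceruloplasmin, which oxidizes iron on its export (8.52 and 6.85 against 24.3 and 28.9, log2 fold change 1.73, adjusted p = 0.00238). Of 16 genes that the study's text names for erythroblastic island macrophages, 1 rose and 2 fell (median -0.15, equal to that of all genes), the rising member being Timd4 and the fallen members Adgre1 and Epor, the last known mainly from erythroid progenitors. In T-cell-poor spots 4 of the 16 rose and 1 fell.

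For complement and clearance genes the balance of directions depended on the scaling. Of 19 complement genes 4 rose, among them C3, Cfb and Cd55, and 2 fell (C1qa itself and Cd59a), and 2 of the 6 were called without knockout 2, 4 without wild-type 1 and 5 without knockout 1. The list median was -0.0082, and 11.6% of all genes rose with TMM scaling. With upper-quartile scaling 1 rose and 4 fell (median -0.33). Of all 17683 genes, 918 rose and 3393 fell with that scaling (median -0.48). Cd55, which protects cells from complement, rose from 55.5 and 48.0 to 134.8 and 183 (1.61, adjusted p = 0.00111). Of 23 genes of dead-cell clearance 5 rose and 0 fell, beside 20.4% of all genes called in either direction, although the list median was -0.18. With upper-quartile scaling 3 rose and 6 fell. Without knockout 2, 2 of the 5 were called. Elmo1, an adaptor of engulfment that lymphocytes also express, rose from 30.4 and 35.1 to 82.3 and 148 (1.84, adjusted p = 0.00121), and the integrin gene Itgav rose from 18.0 and 31.7 to 55.2 and 64.7 (1.38, adjusted p = 0.00582). Of 18 lysosomal genes 4 rose and 0 fell (Ctsh, Lamp1, Hexa and Laptm5, list median 0.30, which turned to -0.02 with upper-quartile scaling), and 0 of the 4 were called without knockout 2.

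The B-cell side of the spots moved the other way. These values are tied to how the spots were chosen, because knockout spots within the limit were allowed a higher lymphoid share. The 12 ranking genes, read without a test, summed to 5830 and 6590 normalized CPM in wild types and 10160 and 11270 in knockouts. Of 12 other B-cell genes 9 rose and 0 fell (median 0.87, summed level 2144 and 2003 against 3714 and 3609), beside 11.6% of all genes that rose. Among spots within 0.25 percentage points of a lymphoid share of 1%, 0 of these 9 were called, and 0 were called without knockout 2. All 9 were called by DESeq2 and in T-cell-poor spots, where 12 of the 12 rose (median 1.09), and 3 of the 9 were called with upper-quartile scaling. Of 12 other T-cell genes 6 rose and 0 fell, and their summed level followed the T-cell-rich spots, at 538 in wild-type 1 and 1956 in wild-type 2 against 1973 and 2752 in knockouts, with 3 of the 6 called without knockout 2 and 3 in T-cell-poor spots.

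Some marginal zone genes, 3 of 12 beside 11.6% of all genes that rose, were called in more of these comparisons. Cr2, complement receptor 2, stood at 185 and 91.6 against 656 and 658 (2.22, SE 0.31, adjusted p = 5.68e-04), S1pr3, a sphingosine-1-phosphate receptor of marginal zone B cells, at 22.2 and 22.3 against 58.4 and 58.0 (1.39, SE 0.24, adjusted p = 0.00238), and Tm6sf1 at 54.8 and 50.5 against 136 and 123 (1.29, SE 0.23, adjusted p = 0.0027). These 3 of 12 marginal zone genes rose and 0 fell, all 3 were called without knockout 2 and in T-cell-poor spots, and Cr2 and Tm6sf1 were called in the matched window. The remaining 9 did not pass the test.

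Of 14 plasma cell genes 6 rose and 0 fell (median 0.43), led by Pou2af1, a coactivator of immunoglobulin genes, at 162 and 162 against 406 and 406 (1.33, SE 0.24, adjusted p = 0.00253). Pou2af1 was not called without knockout 2 (1.33, adjusted p = 0.0616), and 1 of the 6 was. Jchain, which joins secreted antibody chains, stood at 361 and 322 against 354 and 429 (0.20, adjusted p = 0.546). Of 14 antigen presentation genes 6 rose and 0 fell (median 0.72). The part of the higher lymphoid share of knockout spots in the plasma cell and antigen presentation values was not tested, except in the window around 1%. H2-Aa, an MHC class II chain, rose from 658 and 1077 to 2259 and 2640 (1.5, adjusted p = 0.00567), and neither it (1.38, adjusted p = 0.160) nor any other of the 6 was called without knockout 2. In T-cell-poor spots all 6 plasma cell and all 6 antigen presentation genes were called again, and in the window around 1% 2 of each 6 were.

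In the other lists 19 genes were called, spread over 9 of 10 lists. Of 17 sinus endothelial genes Pecam1 and Dnase1l3 rose and Kdr fell. Of 18 stromal genes Dcn rose and Tcf21, Pdgfrb, Col3a1 and Myh11 fell. Of 11 dendritic cell genes Siglech, Ccr9 and Cd8a rose, the last also a gene of T cells. Of 12 monocyte genes Fcgr4 fell, of 17 interferon-stimulated genes Gbp2 rose, of 14 stem and progenitor genes Slamf1 and Cd48 rose and Myct1 fell, and of 12 stress genes Hsp90aa1 rose. Of 11 natural killer genes 0 passed. Of 12 genes of fat and capsule Scd1 rose and of 8 other pancreas genes Ins1 fell. These calls lay beside 20.4% of all genes called. In T-cell-poor spots 12 of the 19 were made again, and without knockout 2, 0 were, with 8 without wild-type 1 and 11 without knockout 1. The 7 pancreas genes of the spot filter that the assay measured summed to 71.1 and 696 normalized CPM in wild types and 200 and 497 in knockouts, without order by genotype. All 4 sections expressed the 4 Y-linked genes measured, and 3 of them rose in knockouts, for example Ddx3y at 49.7 and 53.9 against 96.8 and 144 (1.23, adjusted p = 0.00602, and 0.91 with adjusted p = 0.182 without knockout 2).

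Among genes lower in knockouts, the 10 with the smallest adjusted p, with at least 10 CPM and no overlap of genotypes, were C1qa, Fn3k, Cldn13, Lcn2, Ltf, Ermap, Dmtn, Camp, Rhd and Elane, so that 9 of the 10 were erythroid or neutrophil genes described above. The 10 higher genes were of other kinds. Ighg2b, a heavy chain constant region of class-switched antibody, came first, at 64.0 and 84.8 against 331 and 350 (2.21, SE 0.25, adjusted p = 1.13e-04). Then came Adss, which acts in adenine nucleotide synthesis (18.0 and 12.8 against 65.0 and 89.3, log2 fold change 2.25), and Slmap (20.7 and 19.7 against 74.4 and 87.7, log2 fold change 2.00). Lax1, a membrane adaptor that restrains lymphocyte signaling, stood at 22.9 and 28.3 against 89.3 and 124 (2.10, adjusted p = 2.38e-04). Dnajb9, a chaperone of the endoplasmic reticulum, stood at 2.92 and 2.57 against 19.6 and 22.7 (2.89, adjusted p = 3.28e-04). Ifi208, Tank, Clk1, Foxp1 and Dynll1 completed the set with log2 fold changes of 1.81 to 2.61. In both sets every knockout lay on 1 side of both wild types, as the rule required.

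**Figure D5:**
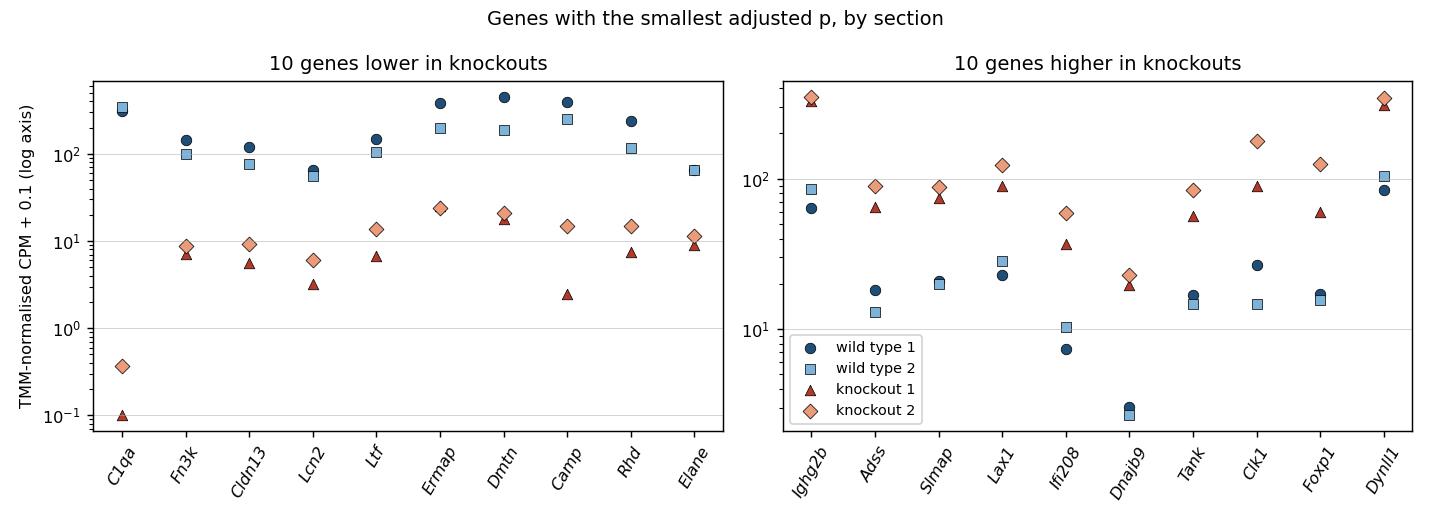
Normalized CPM plus 0.1 (y axis, log scale) of the 10 genes lower and the 10 genes higher in knockouts with the smallest adjusted p, 1 marker per section. Camp falls from 397 and 254 to 2.35 and 14.7, and Ighg2b rises from 64.0 and 84.8 to 331 and 350.

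Whether the genotype difference was larger in low-lymphoid spots than in the 25% of spots with the highest lymphoid share was tested as an interaction within the same sections. The edgeR fit called 515 of 18131 genes (2.84%), 132 (0.728%) shifted up and 383 (2.11%) shifted down in low-lymphoid spots of knockouts. Of 16 erythroid progenitor genes 13 were shifted down, of 16 heme and globin genes 15, of 19 membrane genes 16 and of 21 cell cycle genes 8. Of 16 reticulocyte genes 11 were, of 15 transcription factors 6, of 19 megakaryocyte genes 5, of 20 red-pulp macrophage genes 5 (median -0.83), of 22 iron and heme genes 4 and of 16 late neutrophil genes 1, and 0 of these were shifted up. Of 12 other B-cell genes 8 were shifted up and 0 down. Both spot classes were cut on B- and T-cell genes, and neither was matched for lymphoid share between genotypes. In high-lymphoid spots the median share was 1.525 and 1.971% in wild types and 2.447 and 2.402% in knockouts. In low-lymphoid spots it was also higher in knockouts, as given above. The part of these differences in the shifts of either direction was not tested. Alad, for example, stood at 492 and 282 in low-lymphoid and 102 and 95.4 in high-lymphoid spots of wild types, against 62.3 and 63.6 in low-lymphoid and 63.5 and 59.8 in high-lymphoid spots of knockouts, a log2 difference of -1.95 (SE 0.23, adjusted p = 0.0014). In knockouts Alad thus differed between low- and high-lymphoid spots by at most 0.0865 on the log2 scale. Cr2 was shifted up by 1.62 (SE 0.20, adjusted p = 0.0014), with 182 and 91.6 in low-lymphoid and 667 and 275 in high-lymphoid spots of wild types and 643 and 644 against 675 and 738 in knockouts. The count ranged from 91 without knockout 2 to 4380 without wild-type 2, with 228 without wild-type 1 and 183 without knockout 1. DESeq2 called 71. The high-lymphoid spots were themselves mixed, with median macrophage shares of 0.264% in wild-type 1 and 0.354, 0.388 and 0.408% in wild-type 2, knockout 1 and knockout 2, and the part of this difference was not tested.

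Erythroid RNA was also unevenly spread within the low-lymphoid spots. At 1000 UMIs per spot, erythroid genes other than globin gave a mean of 18.7 UMIs per spot in wild-type 1, 7.58 in wild-type 2, 2.62 in knockout 1 and 3.22 in knockout 2. The richest 10% of spots held 17.3% of them in wild-type 1, 34.1% in wild-type 2, 37.4% in knockout 1 and 39.1% in knockout 2. The level of a spot correlated with that of its low-lymphoid neighbors at r = 0.44, 0.79, 0.46 and 0.71 over the same spots as above, again as a description. In the share held by the richest spots and in this correlation, wild-type 2 lay closer to knockout 2 than to wild-type 1.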

How the data were processed

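The authors deposited a matrix of unnormalized UMI counts for each spleen section, with genes against spots. It came from Space Ranger 4.0.1 and the mm10 build, per the file headers and the submitters' processing notes. Other deposited values were spot barcodes, gene names and each spot's place and tissue mark. The matrices list 19465 features, 11 symbols more than once, and 7 of the 8 pancreas genes.

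Spots were filtered, ranked and summed per section in Python 3.11.15, since spots of 1 section are not replicates. Genes passing filterByExpr were fitted in R 4.3.3 with edgeR 4.0.16 (glmQLFit and glmQLFTest, TMM factors), with the absolute log2 fold change over the square root of F as SE. DESeq2 1.42.0, other scalings, filters, spot limits and depths were alternatives. The fit was tested on simulated data. No replicate pair was a duplicate (chi-square per degree of freedom 13.1 and 3.80).

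Members and the 34 gene lists were chosen with earlier results of these data known. The genes named were C1q genes, 3 red-pulp markers, the 10 genes lower and the 10 higher with the smallest adjusted p (no overlap of genotypes, at least 10 CPM), per list at most 4 by adjusted p and 2 by CPM, and 5 per direction for the interaction. Of these, the most informative are printed. Members outside this rule that a small count required, such as Cfb and Tcf21, were named after their values were seen. Some results are not reported here.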

Additional observations from a re-analysis of the deposited data

Results flagged for a closer look

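The genotype difference of 9 genes differed between low- and high-lymphoid spots of the same sections by the edgeR interaction test, all among the 5 smallest adjusted p in their direction. Of these, 4 were shifted down in low-lymphoid spots of knockouts, in log2 units: Hist1h1b by -1.90, Dhrs11 by -1.87, Alad by -1.95 and Prg2 by -2.45 (adjusted p = 0.0014 for each). Cr2 (1.62), S1pr3 (1.56), Il4i1 (1.57), Traj32 (1.31) and Enpp2 (1.54) were shifted up. Both spot classes were cut on B- and T-cell genes, and the part of this choice in the shifts was not tested. Prg2, the major basic protein of eosinophils, differed from the other 3 genes that were shifted down, since its values in low-lymphoid spots were close, at 19.2 and 14.5 normalized CPM in wild types against 10.0 and 12.3 in knockouts, and those in high-lymphoid spots stood at 12.8 and 13.6 against 40.1 and 48.0.
Il4i1 (0.94, adjusted p = 0.217), Traj32 (1.00, adjusted p = 0.196) and Enpp2 (0.71, adjusted p = 0.171) were not called without wild-type 1, and Traj32 (adjusted p = 0.167) was not called without knockout 2 either. No group held 4 or more sections, so that no single section could be tested as standing apart.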

How the results depend on the processing

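The number of genes called between genotypes in low-lymphoid spots, 3601, was 1594 with DESeq2, 1237 with sums thinned to the smallest section, 187 with spots thinned to 1000 UMIs and 1395 within 0.25 percentage points of a lymphoid share of 1%, and ranged from 601 to 5794 on leaving out 1 section. DESeq2 gave an adjusted p to 9548 genes, and the thinned settings tested 11866 and 7107. The interaction count, 515, was 71 with DESeq2 and ranged from 91 to 4380 on leaving out 1 section. The remaining causes were not tested. The same-numbered sections had a correlation of deviations of 0.09 over 2 pairs, so the numbers were not taken to pair the spleens, and with the replicate block 3411 genes were called, or 498 for the interaction. Of 109 named values (102 of them called), 2054 alternative values kept direction and call in 1773 cases, lost the call in 252, gained it in 19 and turned direction in 10. C1qc turned to -0.11 and Jchain to -0.13 with upper-quartile scaling, and Jchain to -0.0154 with 1 lymphoid-share limit for all sections and -0.28 with thinned spots. Slc40a1 turned to 0.19 in T-cell-poor spots, 0.20 with Ighm left out of the ranking (where Fcgr4 turned to 0.0048) and 0.0803 in the window around 1%. On leaving out 1 section, Hmox1 ranged from -1.18 to 0.0351 and Slc40a1 from -0.53 to 0.14, with the turn in both without wild-type 1. Median depth was 2322 UMIs per spot in wild-type 2 against 7622 or more elsewhere, which limits what could be detected there.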
